A study of Mus musculus with 8 samples.

Results

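Tandem pairs of poly(A) sites (PASs) more than 1500 nt apart were examined in NIH3T3 cells, an established line of mouse fibroblasts, before, during and after arsenite stress. A gene was a member when its table listed exactly 2 PASs, both of the 3′-most exon, with positions over 1500 nt apart on the genome, whether or not its isoforms changed. There were 489 such genes among 10452 genes in the table of the arsenite library (AS), 503 among 10081 in that of 4 h of recovery (RC4) and 513 among 10441 in that of 8 h of recovery (RC8). They were a subset of the 2504, 2446 and 2481 tandem pairs of any distance, and of the 4313, 4340 and 4385 genes with 2 or more PASs of the 3′-most exon. Over the 3 tables, 647 genes were members at least once, 375 were members in every table, and 323 had the same 2 positions in every table.

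Most mammalian genes can end their mRNAs at more than 1 site. When both sites lie in the last exon, the choice leaves the protein unchanged but sets the length of the 3′ UTR, and with it the binding sites for microRNAs and RNA-binding proteins that the long isoform carries and the short isoform lacks. A fall of the distal isoform relative to the proximal isoform is called 3′UTR shortening and a rise is called lengthening. Cells under stress and proliferating cells are known to alter this choice.

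The proliferating cells had received 250 µM sodium arsenite, an inducer of oxidative stress, for 1 h (AS), or the same treatment followed by 4 h (RC4, RC4h in the labels) or 8 h (RC8, RC8h) in normal medium. Non-treated cells (NT) were the control, and total RNA of each condition gave 1 QuantSeq FWD library, in which reads fall near the 3′ end of polyadenylated RNA. With 1 library per condition there is no spread between cultures, every change below compares 2 libraries, and the 3 comparisons share the NT library. All 7 fibroblast markers were listed in the 3 tables (Col1a1 had 15048 NT reads and Vim 40295), and none of the 4 epithelial and 2 leukocyte markers was, where genes under 50 reads are not listed. In bulk RNA a lower level in every cell and fewer cells with the RNA cannot be told apart.

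Depth on genes was 22441452 to 22996421 reads per library. The median member had 592 to 645 NT reads, and members together held 2.51% to 2.71% of the NT reads. Reads were assigned to PASs by the authors' program, so an isoform's reads are the gene's reads multiplied by the deposited fraction. Such tag reads need no correction for transcript length. Intervals given for shares of reads are 95% Wilson intervals and cover counting error only. Those given for shares of members, pairs or PASs are 95% Wilson intervals too, with the members, pairs or PASs as units. Intervals of medians are 95% order-statistic intervals over genes, and no interval given covers variation between cultures.

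The 721 distinct pairs were 1501 to 31558 nt apart, with a median of 2478 nt. Of these, 203 were up to 2000 nt apart, 259 were over 2000 and up to 3000 nt, 181 were over 3000 and up to 5000 nt, 60 were over 5000 and up to 10000 nt, and 18 were farther apart. The stretch between the PASs had a median G+C content of 44.0%. Where the stop codon could be placed (589 pairs), the proximal isoform had a median 3′ UTR of 457 nt, so that use of the distal PAS usually adds several times the length of the short 3′ UTR.

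The sequences at the PASs show how the 2 ends of a wide pair differ. Below are the 30 nt of the sense strand that end at each PAS, read from the mm9 genome, with the poly(A) signal AATAAA or its common variant ATTAAA in capitals. Lnpep, Rcbtb1, Tgfbrap1 and Zkscan1 are shown because they were among the most shortened members, and Med16 and Mto1 because they were among the most lengthened.
Lnpep proximal, chr17:17664123-17664152, minus strand: attctagacttgagaaaaagaatcgattgg
Lnpep distal, chr17:17658400-17658429, minus strand: actataaacactgttgctttctttgtgaaa
Rcbtb1 proximal, chr14:59854338-59854367, plus strand: ctgtgtctagatatgtatgttttacatgta
Rcbtb1 distal, chr14:59856073-59856102, plus strand: tgacatgctAATAAAcaacctctgaaggca
Tgfbrap1 proximal, chr1:43105624-43105653, minus strand: tgaattcatatcatcttcgtaattttctca
Tgfbrap1 distal, chr1:43104114-43104143, minus strand: gttgattttATTAAAattcttctaattctt
Zkscan1 proximal, chr5:138545624-138545653, plus strand: cttatatacatcagagaattgattccagaa
Zkscan1 distal, chr5:138548945-138548974, plus strand: cagcaggATTAAAatcattgctgttaaaaa
Med16 proximal, chr10:79357454-79357483, minus strand: actggcccAATAAAgttctctgatgcacta
Med16 distal, chr10:79355435-79355464, minus strand: atagtgtagatacatataacAATAAAtaaa
Mto1 proximal, chr9:78321927-78321956, plus strand: atgaataggaAATAAAgatgacactgaaaa
Mto1 distal, chr9:78324090-78324119, plus strand: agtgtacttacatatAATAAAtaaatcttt
The 4 shortened genes have neither motif at the proximal PAS, and 3 of them have 1 at the distal PAS, while Med16 and Mto1 have AATAAA at both ends. These genes do not stand for all shortened members. In AS, 28 of the 56 members shortened at least 2-fold had either motif in the 40 nt before the proximal PAS, against 232 of all 489.

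Over all 721 wide pairs, AATAAA or ATTAAA stood in the 40 nt before the distal PAS in 74.3% (71.0% to 77.4%) and before the proximal PAS in 43.4% (39.8% to 47.1%). Only the sense strand was searched, and the same motifs stood before 51.9% of all 21565 PASs of the 3 tables. Distal PASs of wide pairs carried a signal more often than those of 1216 pairs of 300 to 1500 nt (64.2%, 61.5% to 66.9%) and of 1390 pairs under 300 nt (59.7%, 57.1% to 62.3%). Proximal PASs of wide pairs had a share close to that of the pairs of 300 to 1500 nt (44.8%) and above that of the pairs under 300 nt (22%). The combination of Rcbtb1, Tgfbrap1 and Zkscan1, a signal at the distal but not at the proximal PAS, was the most frequent one, at 309 of 721 pairs (42.9%). A PAS was counted as lying at an A-rich stretch where a run of at least 8 A lay between 15 nt before and 20 nt after it, where a run of at least 6 A lay in those last 20 nt, or where any 10 nt of these had at least 7 A. This was so for 8.04% of proximal and 10.5% (8.50% to 13.0%) of distal PASs of wide pairs, against 8.28% (7.89% to 8.69%) of all PASs of the 3′-most exon and 12.1% of PASs of every type. The part that only the long isoform holds had a median of 1.57 ATTTA per kb, the core of AU-rich elements, against 1.57 per kb in pairs of 300 to 1500 nt. The Pumilio motif TGTANATA occurred at least once in 41.5% of these parts, which are longer, against 17.0% in pairs of 300 to 1500 nt. Per kb it was less frequent in wide pairs, with a mean of 0.21 against 0.26 in pairs of 300 to 1500 nt and 0.39 in pairs under 300 nt.

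In NT cells the long isoform prevailed in most members. The median share of reads at the distal PAS was 63.0% over the members of the AS table, 65.6% over those of RC4 and 65.9% over those of RC8, and single members ranged from 2.44% to 98.1%. The distal PAS held more than 50% of reads in 302 of 489 members of the AS table. A gene such as Srsf1, which encodes a splicing factor of the SR family, ended at the proximal PAS in most transcripts (9.66% distal in NT), whereas Csnk1d, which encodes casein kinase 1 delta, ended at the distal PAS (92.3%).

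The first question was how far the balance of the 2 isoforms differed from NT at each stage. In the AS library, the log2 ratio of distal over proximal reads was lower than in NT in 390 of 489 members (79.8%), with a median change of −0.37 (−0.43 to −0.32). In RC4 it was lower in 416 of 503 members (82.7%), with a median of −0.63 (−0.69 to −0.56), the strongest of the 3. In RC8 it was lower in 341 of 513 members (66.5%), with a median of −0.23 (−0.31 to −0.18).

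Closer pairs had medians nearer to 0. Pairs of 300 to 1500 nt had medians of −0.14 (−0.17 to −0.12) in AS, then −0.32 (−0.36 to −0.29) in RC4 and −0.16 (−0.22 to −0.13) in RC8. Pairs under 300 nt had medians of −0.04, 0.01 and 0.10. Such a median can hide changes in both directions. In RC8, 6.48% of pairs under 300 nt were shortened and 16.4% lengthened at least 2-fold, against 11.9% and 2.14% of wide pairs. The intervals of wide pairs and of pairs of 300 to 1500 nt did not overlap in AS and RC4, and they overlapped in RC8.

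**Figure D1:**
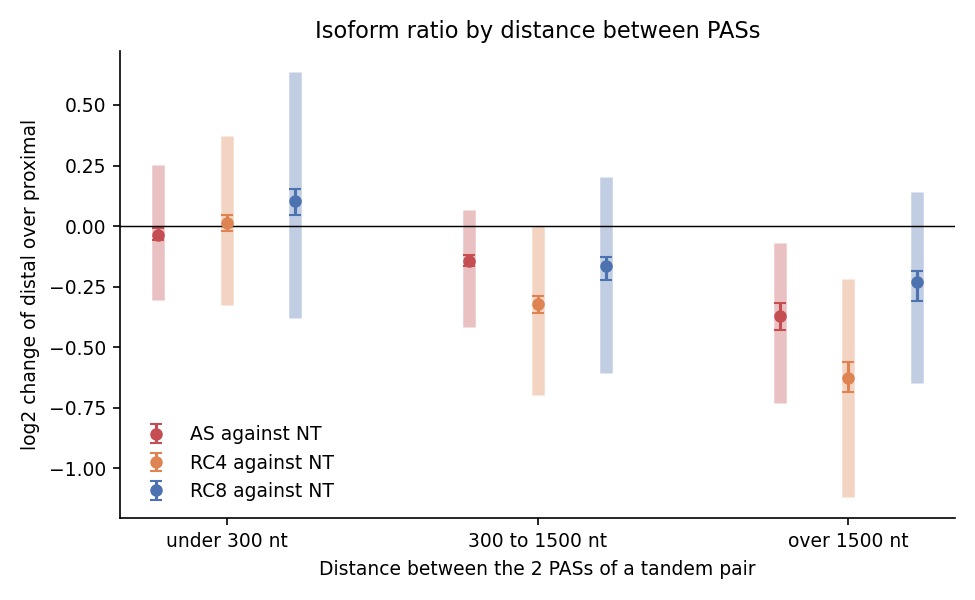
Median log2 change of distal over proximal reads against NT (points, with 95% order-statistic intervals as error bars and the middle 50% of genes as pale bars) for tandem pairs in 3 classes of distance. The wide pairs lie lowest in AS and RC4 (medians −0.37 and −0.63), and in RC8 their interval overlaps that of pairs of 300 to 1500 nt.

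A change of at least 2-fold was used to count single members, since no test over replicates exists. In AS, 56 members were shortened at least 2-fold (11.5%, 8.93% to 14.6%), against 6.75% of all genes with 2 or more PASs of the 3′-most exon, and 6 were lengthened (1.23%) against 1.95%. In RC4, 150 were shortened (29.8%, 26.0% to 34.0%) against 17.4%, and 13 were lengthened (2.58%) against 4.38%. In RC8, 61 were shortened (11.9%) against 10.5%, and 11 were lengthened (2.14%) against 7.59%. The share of shortened members was thus above that of all such genes in AS and RC4 and close to it in RC8. In genes with more than 2 such PASs, the first was set against the last. Among tandem pairs of any distance, which like members have exactly 2 PASs, 4.83%, 13.0% and 9.19% were shortened in AS, RC4 and RC8. The lengthened shares of these pairs were 2.48%, 5.36% and 8.54%. Lengthening in RC8 lay mainly in pairs under 300 nt, where 177 of 1080 were lengthened (16.4%), and pairs of 300 to 1500 nt had a share like that of the members (2.70%). PASs had been selected on the 2 libraries of a table together, so a site used mainly in the treated library could make a gene a member. Of the 323 pairs with the same positions in every table, 27, 75 and 32 were shortened in AS, RC4 and RC8, lower shares than among all members. In the same order, 4, 10 and 7 were lengthened. The share over all genes was not recomputed for shared positions.

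Averaged over a member's reads, the distance of the 3′ end beyond the proximal PAS had a median change of −100.2 nt (−117.7 to −85.2) in AS, −158.5 nt (−188.1 to −140.3) in RC4 and −63.2 nt (−71.7 to −42.0) in RC8. These are genomic distances. Both PASs lay in the same annotated exon in 426 of 721 pairs (59.1%), and the distal PAS lay more than 50 nt beyond the annotated gene end in 154 of the 657 pairs with an annotated gene (23.4%), so they equal 3′ UTR lengths only where nothing between the PASs is spliced out.

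Among the members themselves, the size of the change rose with distance in AS. The median was −0.21 (−0.29 to −0.11) in 138 pairs up to 2000 nt apart, −0.38 (−0.49 to −0.31) in 191 pairs of 2000 to 3000 nt, −0.57 (−0.73 to −0.40) in 111 pairs of 3000 to 5000 nt and −0.62 (−0.84 to −0.24) in 49 pairs over 5000 nt. The shares shortened at least 2-fold were 5.80%, 7.85%, 17.1% and 28.6% in the same order. RC4 showed another order, with −0.53, −0.68 and −0.71 up to 5000 nt and −0.31 (−0.54 to −0.06) in the 52 pairs over 5000 nt. In RC8 the medians of the 4 classes lay between −0.21 and −0.29, with overlapping intervals.

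**Figure D2:**
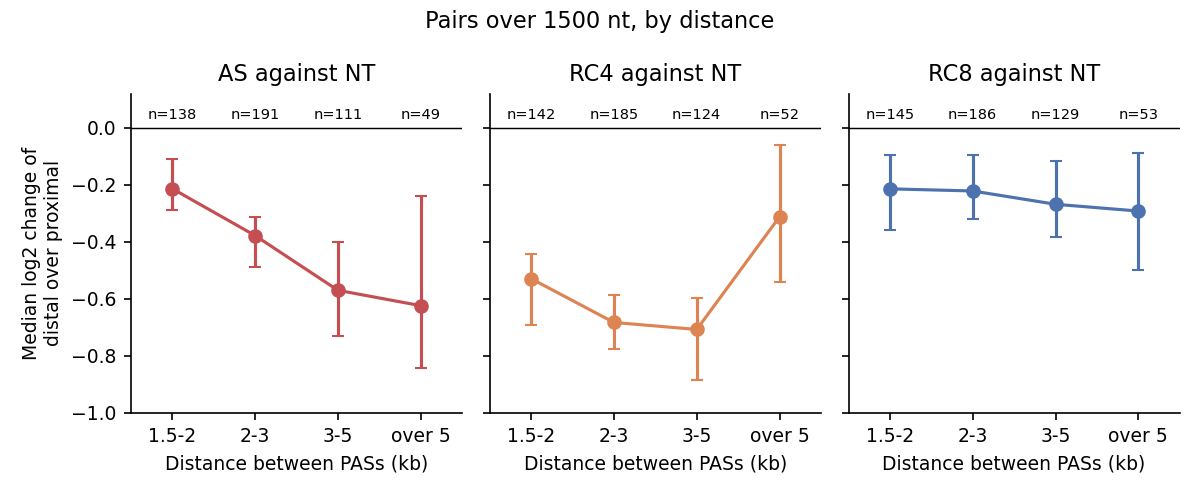
Median log2 change of distal over proximal reads in 4 classes of distance among pairs over 1500 nt, with 95% order-statistic intervals and the number of pairs, 1 panel per comparison with NT. The AS medians fall from −0.21 to −0.62 with distance, while the RC4 median of the widest class (−0.31) is nearest to 0.

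The levels of the 2 isoforms were then taken apart, as reads of each isoform per reads on genes. By this scaling the median gene itself had a log2 change of −0.04 in AS, −0.30 in RC4 and 0.01 in RC8, so isoform levels are given relative to the median gene of the comparison. In AS the proximal isoform of members was near the median gene, at −0.03 (−0.08 to 0.03), and the distal isoform was at −0.43 (−0.48 to −0.36). In RC4 the proximal isoform was at 0.32 (0.20 to 0.36) and the distal isoform at −0.33 (−0.43 to −0.24). In RC8 the proximal isoform was at 0.18 (0.12 to 0.22) and the distal isoform at −0.05 (−0.11 to 0.02). Relative to total reads instead, the RC4 medians were 0.01 for the proximal and −0.64 for the distal isoform.

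Relative to the median gene, the long isoform was low in AS, while in both recovery libraries the short isoform stood above it. The distal isoform was at least 2-fold lower in 80 members in AS (16.4%) against 5.58% of all PASs, and the proximal isoform was at least 2-fold higher in 5 (1.02%) against 1.18%. In RC4 the distal isoform was at least 2-fold lower in 76 members (15.1%) against 9.14% of PASs, and the proximal isoform was at least 2-fold higher in 94 (18.7%) against 9.95%. In RC8 the distal isoform was at least 2-fold lower in 39 members (7.60%) against 7.45%, and the proximal isoform was at least 2-fold higher in 56 (10.9%) against 4.73%. Set against the like isoform of all genes with 2 or more PASs of the 3′-most exon, the excess was smaller. In RC4 their distal isoform was at least 2-fold lower in 12.2% and their proximal isoform at least 2-fold higher in 14.4%. In AS their distal isoform was at least 2-fold lower in 8.90%. In RC8 their proximal isoform was at least 2-fold higher in 7.53% and their distal isoform at least 2-fold lower in 7.25%. The RC4 counts also depended on the scaling. Per total reads, the distal isoform was at least 2-fold lower in 157 members (31.2%) and the proximal isoform at least 2-fold higher in 59 (11.7%). Both isoforms added up, members had a median gene level of −0.24 (−0.29 to −0.19) in AS, then −0.07 in RC4 and 0.05 in RC8, and the AS value was lower than that of pairs of 300 to 1500 nt (−0.02, −0.05 to 0.00).

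The members shortened at least 2-fold were split by the same levels relative to the median gene, and the RC4 split would shift toward the distal isoform per total reads, where the median gene is at −0.30. Of the 56 in AS, 29 had a distal isoform at least 2-fold lower and 4 a proximal isoform at least 2-fold higher, and the other 23 had neither. Of the 150 in RC4, 43 had the distal fall alone, 53 the proximal rise alone and 2 both. Of the 61 in RC8, 18 had the distal fall and 21 the proximal rise.

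**Figure D3:**
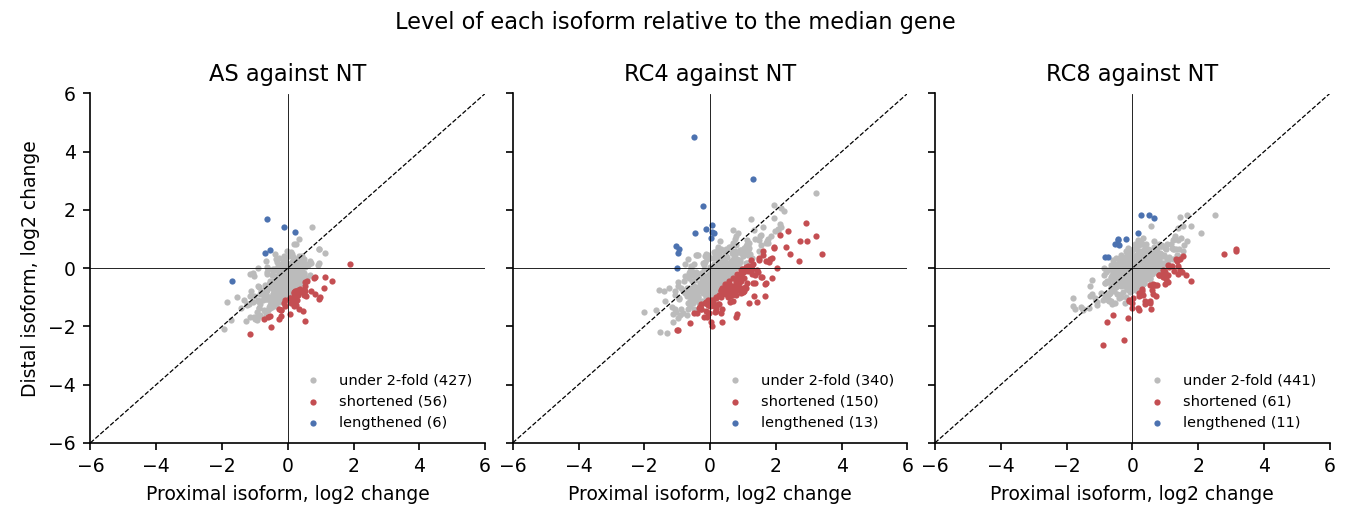
Log2 level change against NT of the proximal isoform (horizontal axis) and of the distal isoform (vertical axis), relative to the median gene, 1 point per pair over 1500 nt and 1 panel per comparison, with pairs changed at least 2-fold coloured and the dashed line marking equal change. Shortened pairs lie below the line by definition. By this scaling, more of them had a low distal isoform in AS (29 of 56), and in RC4 a high proximal isoform was also frequent (53 of 150).

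Over the 323 pairs with the same positions in every table, the libraries can be set side by side. The median distal share was 59.0% in NT, 53.7% in AS, then 50% in RC4 and 56.2% in RC8, with order-statistic intervals of 52.7% to 65.5%, 47.8% to 57.9%, 43.6% to 55.8% and 50.2% to 61.5% that overlapped because members differ widely in usage. Within a pair the order was clearer. The lowest of the 4 distal shares was in RC4 in 162 pairs (50.2%), in AS in 73, in RC8 in 62 and in NT in 23, with 3 ties. The highest was in NT in 162 pairs, in RC8 in 81, in RC4 in 42 and in AS in 34. The NT share of a pair differed by at most 5.10 percentage points between tables.

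Steps between treated libraries need no NT values. From AS to RC4 the log2 ratio differed further by a median of −0.20 (−0.27 to −0.14) over 371 wide pairs, and from RC4 to RC8 the median difference was 0.38 (0.29 to 0.47) over 372. For the first step, pairs of 300 to 1500 nt had a median of −0.15 (−0.21 to −0.11), overlapping that of wide pairs, and pairs under 300 nt one of 0.07. The second step was 0.15 (0.09 to 0.22) in pairs of 300 to 1500 nt and 0.08 (0.04 to 0.14) in pairs under 300 nt, both lower than in wide pairs. The 2 steps share the RC4 library.

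Genes are named below mostly by rank among members with at least 200 reads and at least 5% of them at each PAS in both libraries. The lowest RC4 value by that rule was that of Zkscan1, which encodes a zinc-finger protein with a SCAN and a KRAB domain. Its distal share was 66.5% (62.5% to 70.3%) of 558 reads in NT, 26.5% (22.1% to 31.2%) of 360 reads in RC4 and 40.8% (36.5% to 45.1%) of 496 reads in RC8, and with a distal PAS 76 nt farther on it was 51.5% in AS. The NT interval lies above those of the treated libraries. The log2 change in RC4 was −2.46 ± 0.22 (counting error), with the distal isoform at −1.67 and the proximal isoform at 0.78 relative to the median gene. Fisher's exact test on the reads of the 2 libraries, two-sided and adjusted by Benjamini-Hochberg over all 4340 genes with 2 or more such PASs, gave 1.0e-31.

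Rcbtb1 and Tgfbrap1, members in the recovery tables only, used the distal PAS almost throughout in NT. Rcbtb1, which encodes a protein with RCC1 repeats and a BTB domain, had a distal share of 93.4% in NT, 74.3% in RC4 and 81.8% in RC8. Tgfbrap1, named for its binding to a TGF-β receptor, had 93.0%, 73.3% and 80.5%. Both libraries of recovery thus lay below NT, with log2 changes of −2.30 ± 0.29 and −2.26 ± 0.31 in RC4, and in Tgfbrap1 the proximal isoform was at 1.89 while the distal isoform was at −0.34. Wdr18, which encodes a factor of ribosome biogenesis, used mainly its proximal PAS, with 30.8% distal in NT, 26.8% after arsenite, 10.7% at RC4 and 15.6% at RC8. Its distal isoform accounted for the difference in RC4 (−1.84, against 0.04 for the proximal isoform).

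In AS the lowest value of all members was that of Lnpep, which encodes a membrane aminopeptidase. Its distal share was 94.7% (93.7% to 95.5%) of 2259 reads in NT and 78.0% (74.9% to 80.8%) of 751 reads in AS, a log2 change of −2.34 ± 0.19 with an adjusted p of 1.1e-33 in Fisher's exact test. Its distal isoform was at −1.82, and the distal PAS lies 6287 nt beyond the annotated end of the gene at an A-rich stretch of the genome. Its proximal PAS lies beyond that end too. Mysm1, which encodes a deubiquitinase of histone H2A, went from 91.3% to 72.2% distal.

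Dcp2, which encodes the decapping enzyme of mRNA decay, was low in AS alone. Its distal share was 74.8% in NT, 43.9% in AS, then 81.0% in RC4 and 82.2% in RC8, so the AS interval (38.3% to 49.7%) stands apart from the other 3 libraries. Foxk1, which encodes a forkhead transcription factor, differed from NT by much the same amount at all stages, with 93.4% in NT, 83.0% after arsenite, 83.5% at RC4 and 84.5% at RC8. Synrg, which encodes a partner of the AP-1 adaptor complex, had 30.2% in NT, 12.9% in AS and 12.7% in RC4, and 43.8% in RC8 with a distal PAS 52 nt nearer. Members thus differed in time course.

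**Figure D4:**
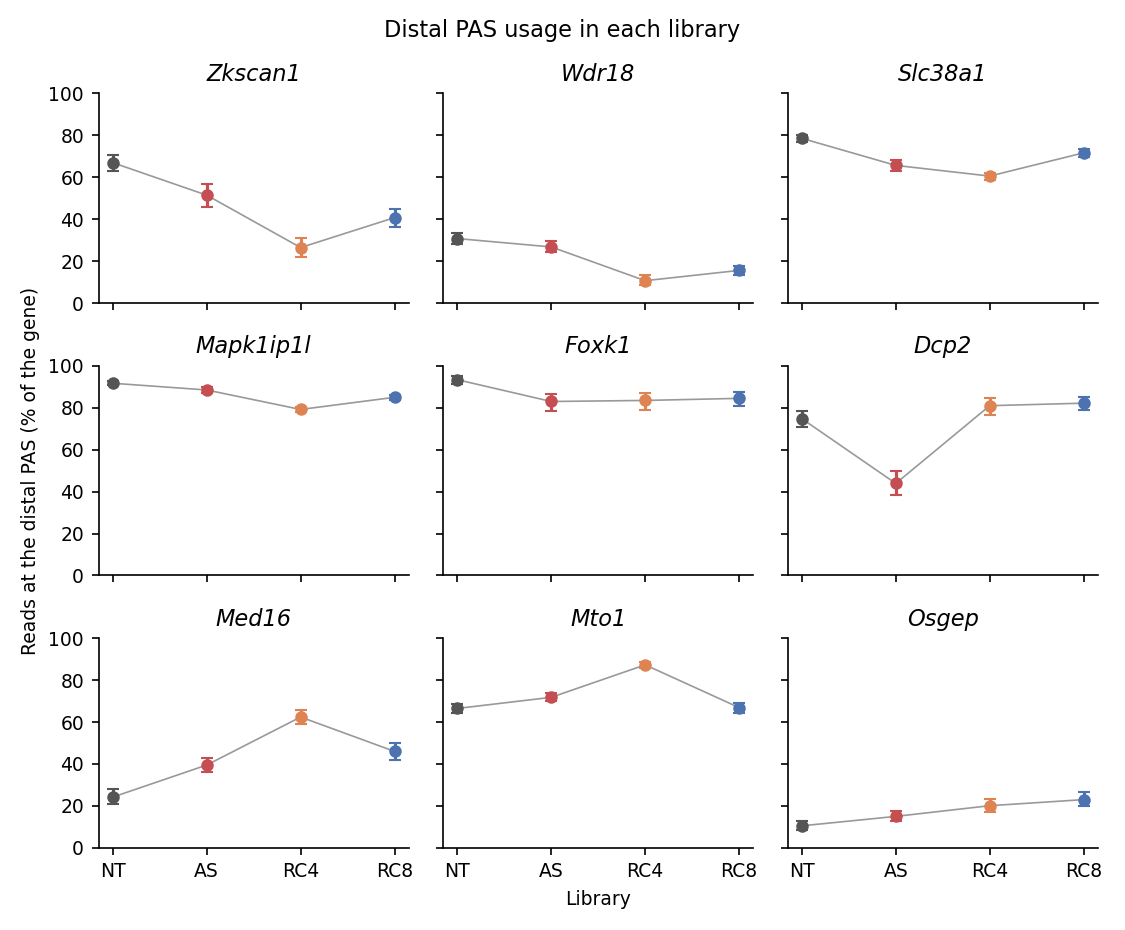
Share of a gene's reads at the distal PAS in the NT, AS, RC4 and RC8 libraries for 9 members, with 95% Wilson intervals of the reads. Zkscan1 and Wdr18 are lowest in RC4, Dcp2 is low in AS alone (43.9%), and Med16 and Mto1 are highest in RC4.

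The lowest members of RC8 by the same rule were Tmem259, which encodes a membrane protein, and Ust, a sulfotransferase of glycosaminoglycans. Tmem259 had a distal share of 20.6% in NT, 13.7% in AS, then 16.0% in RC4 and 5.11% (3.4% to 7.8%) in RC8. Ust had 91.3% in NT, 77.6% in RC4 and 68.8% in RC8. In Ust the proximal isoform was at 2.31 in RC4 and 1.77 in RC8 relative to the median gene, and in Tmem259 the distal isoform was at −2.46 in RC8. Slc41a2, a magnesium transporter, had a lower share at each stage, from 83.9% in NT to 77.2%, 74.3% and 63.2% in the order of treatment, and Ptrh2, a mitochondrial peptidyl-tRNA hydrolase, from 30.3% to 20.3%, 19.1% and 12.3%. Ubtd2, a ubiquitin-domain protein, had 94.7% in NT and 88.8%, 85.8% and 84.8% afterwards, with its distal PAS 2021 nt beyond the annotated gene end.

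Other strongly shortened members of RC4 differed in which isoform carried the change. In Prpf18, a splicing factor (93.2% distal in NT, 74.2% in RC4), the proximal isoform was at 1.71 and the distal isoform at −0.52 relative to the median gene. In Nfya, a subunit of the CCAAT-binding factor NF-Y (88.5% in NT, 64.7% in RC4 and 67.3% in RC8), they were at 2.04 and 0.01. In Pknox1, a homeobox factor (94.9% to 81.6%), both were above the median gene, at 2.94 and 0.95. Usp49, a deubiquitinase, was the opposite case, with the proximal isoform at 0.05 and the distal isoform at −2.0 as its distal share went from 47.8% to 17.8%.

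Among the lowest members of AS, Sgms2, a sphingomyelin synthase, went from 93.4% distal in NT to 81.0% in AS and 85.7% in RC4. Its distal isoform changed sides, at −0.89 in AS and 0.74 in RC4 while the proximal isoform was above the median gene in both. Ctnnd1, which encodes p120 catenin, went from 22.8% to 9.21% in AS and from 23% to 17.3% in RC4, with PASs 13687 nt apart and the distal PAS 12975 nt beyond the annotated end. Arl5b, a small GTPase, went from 92.8% to 78.8% in AS. Members under those limits reached lower values in RC4 still, down to −3.02 in Nectin1, a cell adhesion protein with 3.23% of reads at its proximal PAS in NT and 21.3% in RC4.

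Lengthening was rare, and the lengthened members of RC4 shared features that the selection had not used. All 13 had AATAAA or ATTAAA before the proximal PAS, against 60 of the 150 shortened members and 238 of all 503. The gene end was annotated in 12, and in 11 of these the distal PAS lay more than 50 nt beyond it, against 20 of 136 shortened members and 108 of 459 members with an annotated end. The gene end and the annotated exon were not features planned beforehand. The distal PAS lay at a stretch rich in A on the genome in 8 of 13, against 12 of 150 shortened members and 58 of 503. None of the 13 was among the 298 members with both PASs in the same annotated exon. By definition that group cannot hold a distal PAS beyond the gene end or a gene without annotation. The count therefore largely repeats that of the gene end and is no separate feature. The 298 had an RC4 median of −0.72 (−0.79 to −0.64), and the other 205, including genes without annotation, −0.46 (−0.58 to −0.37). This split overlaps with the split by gene end for the same reason. In AS, the distal PAS lay beyond the gene end in 4 of the 5 lengthened members with an annotated end and at such a stretch in 5 of 6. In RC8 the counts were lower, 4 of 11 and 3 of 11. Oligo(dT) primers can also start at A runs inside longer RNA, and their part in these values was not tested.

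The signal at the proximal PAS went with a smaller difference in RC4 among all members. The 238 members with it had a median of −0.55, and 60 of them were shortened and 13 lengthened at least 2-fold. The 265 members without it had a median of −0.69, with 90 shortened and 0 lengthened, and the intervals of the medians overlapped. In AS the medians with and without it were −0.36 and −0.38, with 28 members shortened at least 2-fold in each group.

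Split by the place of the distal PAS, a feature not planned beforehand, members differed in RC4. Where it lay at or before the annotated gene end (351 members), the RC4 median was −0.71 (−0.79 to −0.64), and where it lay beyond (108 members) it was −0.33 (−0.45 to −0.16). In the widest class of distance, over 5000 nt, the medians were −0.70 (−1.47 to −0.06, 22 members) and −0.13 (−0.36 to 0.49, 28 members), with overlapping intervals. The intervals also overlapped up to 2000 nt (−0.57 and −0.45) and from 3000 to 5000 nt (−0.74 and −0.50). From 2000 to 3000 nt they stood apart, at −0.76 (−0.88 to −0.66) and −0.29 (−0.62 to 0.41). Over all distances, the AS values were −0.37 and −0.39 and the RC8 values −0.26 and −0.17, with overlapping intervals in both.

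**Figure D5:**
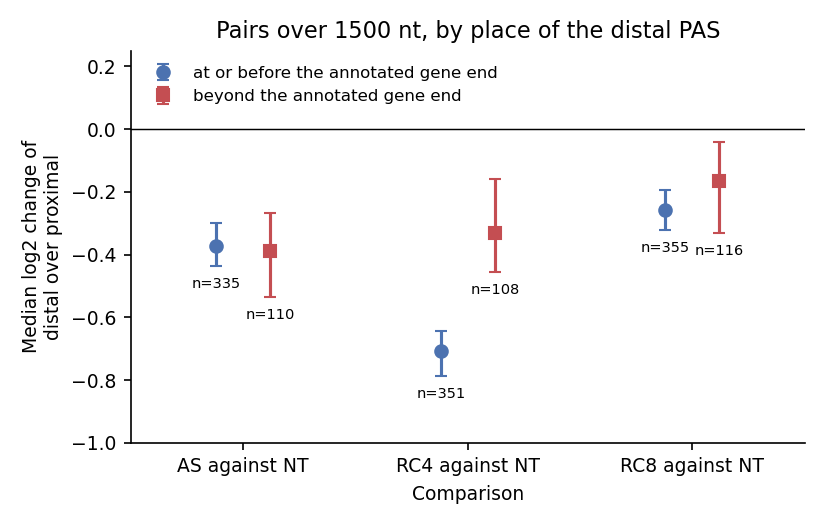
Median log2 change of distal over proximal reads in pairs over 1500 nt whose distal PAS lies at or before (circles) or more than 50 nt beyond (squares) the annotated gene end, with 95% order-statistic intervals and numbers of pairs. The groups stand apart in RC4 (−0.71 and −0.33) and overlap in AS and RC8.

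Med16, which encodes a subunit of the Mediator complex, was among the 5 highest members of every table by the naming rule. Its distal share was 24.2% (20.9% to 28.0%) in NT, 39.5% (36.1% to 43.0%) after arsenite, 62.4% (59.0% to 65.7%) at RC4 and 46.0% (42.1% to 50.1%) at RC8. NT was the lowest and RC4 the highest, with no overlap of their intervals, and the RC4 change was 2.38 ± 0.18 with an adjusted p of 8.9e-43 in Fisher's exact test. The distal isoform was at 2.15 and the proximal isoform at −0.22, and the distal PAS lies 2017 nt beyond the annotated gene end at an A-rich stretch.

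Mto1, a modification enzyme of mitochondrial tRNA, had a distal share of 66.5% in NT, 71.8% in AS, then 87.3% in RC4 and 66.9% in RC8, so the RC4 library stood alone. Both isoforms differed there, the proximal at −1.04 and the distal at 0.75 relative to the median gene. Osgep, the catalytic subunit of another tRNA-modifying complex, had 10.5% in NT, 15% after arsenite, 20.1% at RC4 and 23% at RC8, with PASs 10975 nt apart. Virma, which encodes a subunit of the RNA m6A writer complex, had 61.5% of 3820 reads in NT, 78.8% in AS and 76.5% in RC4, with an A-rich stretch at its distal PAS.

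Other lengthened members differed in how many libraries stood above NT. Uevld had a distal share of 61.7% in NT, 63.3% in AS, then 82.0% in RC4 and 62.9% in RC8. Eml1, a microtubule-associated protein, had 6.26% in NT, 13.2% and 13.3% in AS and RC4, and 6.85% in RC8. Uckl1, a uridine kinase homologue, stayed above its NT share of 8.57%, with 13.1%, 20.6% and 17.8%. Atf7ip, a partner of the histone methyltransferase SETDB1, was highest in AS (91.6% against 81.6% in NT), Sema3c, a semaphorin, had 87.3% in NT and 93.1% in AS, and Map3k2, a MAP kinase kinase kinase, had 52.7% in NT and 70.7% in RC8.

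Nif3l1 was higher as a whole gene, from 897 NT reads to 4171 in RC4 and 2316 in RC8, with a distal share of 53.7% in NT, 55.4% after arsenite, 79.7% at RC4 and 71.1% at RC8. Its RC4 levels were 1.31 for the proximal and 3.06 for the distal isoform. Sirt6, which encodes a NAD-dependent deacylase, was outside the rule for naming because of few NT reads and is given because its value was the highest seen. Its distal share was 58.1% (49.7% to 66.0%) of 136 NT reads, 87.8% of 288 reads in AS, 97.8% (97.0% to 98.5%) of 1533 reads in RC4 and 77.4% of 371 reads in RC8. The RC4 change was 5.04 ± 0.36, carried by the distal isoform (4.51 against −0.49), whose PAS lies 1949 nt beyond the annotated gene end at an A-rich stretch. Acsf3, a mitochondrial acyl-CoA synthetase, changed by 1.60 in RC4 with PASs 24370 nt apart, and another annotated gene of the same strand starts between them, so its distal reads may belong to either gene.

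Members with the most reads give the ratio with the smallest counting error. Psmd2, a subunit of the proteasome's regulatory particle, had 5.22% distal in NT, 6.75% in AS, then 6.16% in RC4 and 3.99% in RC8, log2 changes of 0.39, 0.25 and −0.41. Gpaa1, a subunit of GPI transamidase, had 84.2%, 84.0%, 88.4% and 83.9%, with a log2 change of 0.52 in RC4 and the start of a ribosomal protein pseudogene between its PASs. At this depth small differences pass Fisher's exact test, so its p-values measure read numbers as much as change. Dynll2, a dynein light chain, had 66.7% in NT, 62.7% after arsenite, 53.6% at RC4 and 75.2% at RC8, the lowest in RC4 (log2 change −0.79) and the highest in RC8 (0.60).

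Families of genes, formed by symbol, took in 155 of the 647 member genes. Their counts stand beside 79.8%, 82.7% and 66.5% of all members with a ratio lower than in NT in AS, RC4 and RC8, and 67.5%, 69.1% and 56.2% of all genes with 2 or more PASs of the 3′-most exon. Of 22 zinc-finger and Krüppel-like factors in the AS table, 20 had a lower ratio than in NT (median −0.69) and 3 were shortened at least 2-fold, and Klf6, an early stress-responsive factor, went from 18.1% distal in NT to 12.8% in AS and 12.1% in RC4 while its reads went from 3797 to 7533 and 6444. Of 18 genes of ubiquitin conjugation and deubiquitination in RC4, 17 had a lower ratio (median −0.88) and 8 were shortened at least 2-fold. All 12 solute carriers and ion pumps in RC4 had a lower ratio (median −0.86), 4 of them at least 2-fold. Slc38a1, a transporter of neutral amino acids, had a distal share of 78.6% in NT, 65.7% in AS, then 60.6% in RC4 and 71.7% in RC8, and in RC4 both isoforms were above the median gene (1.94 proximal and 0.69 distal).

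Of 13 genes of membrane traffic, 10 had a lower ratio in AS (median −0.70), 12 in RC4 (median −0.69) and 8 in RC8 (median −0.10). Within this family Tmed7, a cargo receptor of the early secretory pathway, was lowest in RC8, with 70.8% in NT, 56.1% after arsenite, 61.3% at RC4 and 48.4% at RC8. All 6 phosphatases of the AS table and all 5 of RC4 and of RC8 had a lower ratio (medians −0.43, −0.88 and −0.44). Dusp4, a phosphatase of MAP kinases, had 2143 reads in NT and 10933 in RC4 but a distal share that went only from 93.2% to 89.8%. Of 10, 8 and 14 protein and lipid kinases, 0, 3 and 2 were shortened at least 2-fold in AS, RC4 and RC8. Mapk1ip1l, which the symbol places there but which encodes a kinase-interacting protein, had 91.7% distal in NT, 88.5% in AS, then 79.2% in RC4 and 85.0% in RC8.

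Of 10, 9 and 10 small GTPases, 9, 7 and 6 had a lower ratio in AS, RC4 and RC8, with 1 shortened at least 2-fold in each. Of 8, 9 and 11 genes of growth factor and receptor signalling, 1, 5 and 1 were shortened at least 2-fold, and this list also holds Igf2bp3, which encodes an RNA-binding protein. RNA-binding and RNA-processing factors numbered 5, 8 and 5, of which 0, 1 and 0 were shortened at least 2-fold. Chromatin regulators numbered 5, 5 and 4 with 0, 2 and 0, genes named Tmem 6, 6 and 4 with 0, 2 and 1, and genes of matrix, adhesion and cytoskeleton 4, 3 and 5 with 0, 0 and 1. Heat shock proteins and cochaperones had 1, 1 and 2 members. Cbx6, a Polycomb protein, kept 57.7% distal reads in NT and 57.3% in AS while its reads went from 8928 to 5319, and had 61.8% in RC4 and 71.4% in RC8. The shares shortened at least 2-fold were 11.5%, 29.8% and 11.9% among all members. The families are small and were not tested.

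Nearest to the limit of distance, the 3 members and the 3 pairs outside it had AS values of opposite sign. Sumo2, Sap18 and Rbm18, at 1501, 1503 and 1506 nt, had log2 changes of 1.58, 0.16 and 0.23 in AS. Tomm70a, Tbpl1 and Ogt, at 1500, 1498 and 1498 nt and thus not members, had −0.92, −0.47 and −1.12. The sign did not hold across libraries, since Sap18 had 0.34 in RC4 and −0.19 in RC8, and Rbm18 had −0.22 and −0.54.

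Membership itself moved between tables, because PASs had been selected on the 2 libraries of a table together. Of the 647 genes, 158 were not members in the AS table, 99 of them because a single PAS was listed and 44 because more than 2 were. Among those that were not members in the RC4 and RC8 tables, 59 and 55 genes had a single PAS, and 74 and 76 had more than 2. Over the 323 pairs with the same positions throughout, the RC4 median was −0.55 (−0.63 to −0.49).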

How the data were processed

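Total RNA of NIH3T3 cells was sequenced as 1 QuantSeq FWD library for each of 4 conditions. Per the authors, bbmap served for trimming and STAR for mapping to mm9 (version 2.5.2a in the submitters' processing notes), and MAAPER was run with PolyA_DB v3 to assign reads to PASs for each treated library together with NT. Genes with under 50 reads and PASs of low share had been left out. The deposited tables give the read count of each gene, in 2 count columns per library that were added here, and the fraction of a gene's reads at each PAS and library as estimated by the authors. QuantSeq REV libraries of the same conditions were not analysed here. Columns with the authors' p-values and their scores of relative isoform difference and 3′UTR size were not used.

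The log2 ratio of the distal over the proximal fraction was compared between libraries. In genes with more than 2 PASs of the 3′-most exon, the first and the last of them were used. The count was multiplied by the fraction to give reads per PAS for tests, errors and levels, with 1 read added to each for levels. Depth was 22441452 to 22996421 reads per library, and the median counting error of a member's log2 change was 0.22 to 0.23. Without molecular identifiers, PCR copies count as separate reads, so errors cover counting only. Fisher's exact test, adjusted by Benjamini-Hochberg over all genes with 2 or more PASs of the 3′-most exon, compares libraries, not conditions. Levels were scaled to total reads on genes and given relative to the median gene, with TMM factors of edgeR 4.0.16 (R 4.3.3) as an alternative. Other alternatives changed the limit of distance, the minimum of reads, the reads added, the pairs kept and the rule for a call.

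Genes were named by a rule: the 8 lowest and 5 highest members of a comparison among those with at least 200 reads and 5% at each PAS in both libraries, the 5 with most NT reads, 3 on either side of the distance limit, and up to 4 of each of 13 families formed by symbol. Some genes that the rule names are not reported here. Sirt6 and Nectin1 were chosen after their values were seen. The members and the lists were chosen with earlier results of these data known. Sequences came from the mm9 genome and gene ends from GENCODE vM1. Scripts ran in Python 3.11.15 with pandas 2.3.3, numpy 2.4.6, scipy 1.17.1 and matplotlib 3.10.9, and were tested on simulated data.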

Additional observations from a re-analysis of the deposited data

How the results depend on the processing

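The medians of the log2 ratio were below 0 in all 36 recomputed values, and 30 of these moved by little. With a limit of 1000, 2000 or 3000 nt the AS median was −0.29, −0.45 or −0.58, and with 1000 nt the RC4 median was −0.56. Pairs with the same positions in all 3 tables gave −0.55 in RC4, and pairs with the distal PAS at or before the gene end −0.71. Fisher's exact test with no fold limit called 157, 262 and 150 members shortened in AS, RC4 and RC8 and 13, 25 and 38 lengthened. Same positions left 27, 75 and 32 of 323 pairs shortened in AS, RC4 and RC8, lower shares than among all members, and 7 lengthened in RC8. The alternatives on the gene end, on A-rich stretches for the counts and on shared positions for the sequences were added after seeing the data. Pairs within the annotated gene end held 38 shortened in RC8 and 1, 1 and 7 lengthened in AS, RC4 and RC8. Without pairs at an A-rich stretch, 1, 5 and 6 were lengthened. In RC4 the proximal isoform was at 0.01 per total reads, 0.32 against the median gene and 0.30 with TMM factors, and the distal isoform at −0.64, −0.33 and −0.35. A poly(A) signal stood before 51.1% of proximal PASs in pairs with the same positions, against 43.4% of all wide pairs. The 103 values of single genes kept their direction with 1 read added. That check could hardly fail, since most of these genes were named among members with at least 200 reads. Without replicates no library could be left out, and no spread between cultures could be measured. No paired analysis was possible because each condition has 1 library.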
